A study of Mus musculus with 40 samples.

Results

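The miR-106b-25 cluster is a group of 3 microRNA hairpins inside the gene Mcm7, and its 6 mature products were followed in mouse blood over 4 ages. The members were taken by name, both strands of miR-106b, miR-93 and miR-25, and all 6 of the 6 names were found among the 1915 microRNAs of the deposited count table. The 40 libraries were made from total blood, 10 for each of the ages 12, 13.5, 15 and 16.5 months, and the question was how circulating microRNAs change as mice grow older. The mice were male C57B/6J, with no transgene or drug named for them, were single housed and were bled from the orbital sinus at intervals. The study kept animals in their home cage and animals trained in a maze, and the labels do not tell which library came from which. The study's sources give 2 accounts of the 12-month bleeding, 1 in which no test had yet been run and 1 in which training had begun, and maze experience and age cannot be told apart. The same mice were followed over time, whereas the libraries were tested as independent samples, so that p-values measure the spread between libraries.

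MicroRNAs are cut from hairpins as short duplexes, and of each duplex mostly 1 strand is kept by Argonaute proteins to repress messenger RNAs. Targets are found largely through the seed, the stretch from base 2 to base 8 of the mature strand. Mcm7 codes for a subunit of the helicase that unwinds DNA in replication, and the cluster is transcribed with it in dividing cells. The cluster is a relative of miR-17-92, is known to be driven by E2F factors and to act on cell cycle inhibitors and on the pro-apoptotic Bim, and is expressed in blood-forming cells.

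In the GRCm38 assembly Mcm7 lies on the minus strand of chromosome 5, at chr5:138164583-138172422. All 3 hairpins lie in intron 13 of the 15-exon transcript Mcm7-201, an intron of 748 bases at chr5:138165162-138165909. Mir106b comes first in the direction of transcription (chr5:138165737-138165818), followed after 126 bases by Mir93 (chr5:138165523-138165610) and after another 118 bases by Mir25 (chr5:138165321-138165404). No exon of the 10 annotated Mcm7 transcripts overlaps Mir106b, and an exon of 1 transcript overlaps each of Mir93 and Mir25.

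**Figure D1:**
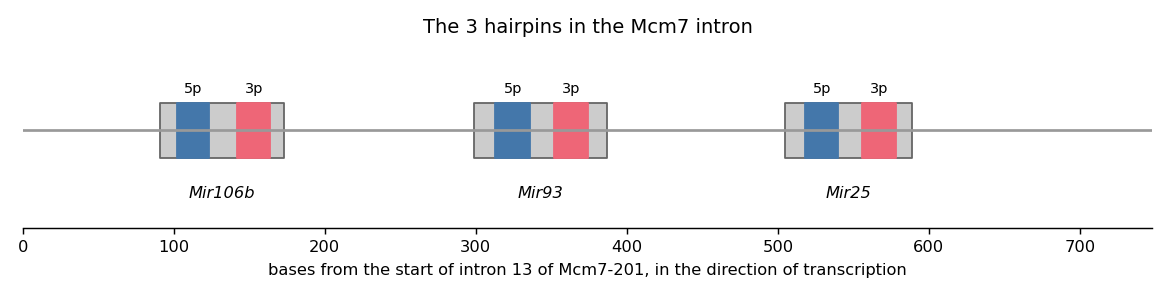
Map of the 3 hairpins (gray boxes) and their 5p (blue) and 3p (red) mature strands along intron 13 of Mcm7-201, in bases from the start of the intron. The hairpins begin 91, 299 and 505 bases into the intron of 748 bases.

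The mature sequences of RefSeq (GRCm38.p6) are shown because the members fall into seed groups that link them to other clusters. Capitals mark the seed.
mmu-miR-106b-5p: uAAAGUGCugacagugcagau
mmu-miR-93-5p: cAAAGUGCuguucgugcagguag
mmu-miR-25-3p: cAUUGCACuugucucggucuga
mmu-miR-106b-3p: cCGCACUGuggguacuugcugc
mmu-miR-93-3p: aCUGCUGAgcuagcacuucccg
mmu-miR-25-5p: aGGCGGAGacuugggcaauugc

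The relatives from the miR-17-92 cluster with which ratios were formed are shown for comparison.
mmu-miR-17-5p: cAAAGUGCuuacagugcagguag
mmu-miR-92a-3p: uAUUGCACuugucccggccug

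The seed AAAGUGC was shared by miR-106b-5p and miR-93-5p and, among 1679 mature sequences, by miR-17-5p, miR-20a-5p, miR-106a-5p, miR-20b-5p and miR-6383. The seed AUUGCAC of miR-25-3p was shared with miR-92a-3p, miR-92b-3p, miR-363-3p, miR-367-3p and miR-32-5p. The seeds of miR-106b-3p, miR-93-3p and miR-25-5p occurred in no other mature sequence of the table. Counted from the 5′ end with the seed included, miR-106b-5p and miR-93-5p were identical at 16 of 21 positions. In the same count miR-93-5p and miR-17-5p were identical at 19 of 23, and miR-25-3p and miR-92a-3p at 18 of 21. No stretch of 18 bases of any member occurred in another RefSeq hairpin.

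The 3 hairpins differed in the strand that had more reads in blood. The whole hairpins are shown with both mature strands in capitals.
Mir106b: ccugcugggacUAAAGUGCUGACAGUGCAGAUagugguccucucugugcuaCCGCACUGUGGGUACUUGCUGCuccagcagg
Mir93: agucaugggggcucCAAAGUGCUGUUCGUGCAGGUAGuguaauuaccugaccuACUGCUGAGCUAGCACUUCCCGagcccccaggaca
Mir25: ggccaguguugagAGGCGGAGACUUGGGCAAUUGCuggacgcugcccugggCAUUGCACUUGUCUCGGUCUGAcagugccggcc

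Over the 40 libraries the 6 members together took 6.16% to 12.5% of the counts outside miR-486 (median 10.1%). miR-25-3p made up 91.0% to 95.7% of the reads of the cluster and was the most abundant member in 40 of 40 libraries. It also had the fifth highest mean level of the 105 microRNAs that were tested. miR-106b-3p was second among the members in 40 of 40 libraries with 2.91% to 5.79% of their reads, and miR-93-5p came next in 40 of 40 with 0.419% to 3.68%. The other three, miR-93-3p, miR-25-5p and miR-106b-5p, each stayed below 1% of the reads of the cluster and changed order among themselves. Hence the 3p strand led at miR-106b and miR-25, and the 5p strand at miR-93.

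The libraries held 2469196 to 21386209 counts, in which the miR-486a and miR-486b rows, identical in every library, are both included. The share of counts outside miR-486, a red-cell microRNA that fills most of each library, was taken with these identical rows counted as 1. It had medians of 14%, 12.7%, 8.54% and 13.7% at 12, 13.5, 15 and 16.5 months, and the lowest median total, 6196820, was that of 15 months. The sample itself carried red-cell, myeloid and lymphocyte microRNAs, while liver miR-122-5p and brain miR-124-3p and miR-9-5p were at 0 to 4 reads in every library. The TMM-scaled CPM was summed over the red-cell microRNAs, with miR-486a-5p and miR-486b-5p counted as 1. It ranged over 310000 to 616000 (median 365000) at 12 months and 265000 to 501000 (median 388000) at 13.5 months. The range was 505000 to 2030000 (median 626000) at 15 months and 275000 to 1030000 (median 377000) at 16.5 months. Such a sum is not a share of a library, since the TMM factor went down to 0.242 at 15 months and 0.469 at 16.5 months. Of the 4 tested red-cell rows, 3 were called over age, 2 of them the identical rows of miR-486-5p, beside 61.0% of all tested microRNAs. The sum is mostly miR-486-5p, and miR-144-5p and miR-451a moved otherwise. At 13.5 against 12 months their log2 differences were -1.595 and -0.84 (edgeR adjusted p = 3.01e-05 and 0.0495), and that of miR-486-5p was -0.009 (adjusted p = 0.97). At 15 against 12 months they were -0.36 and -0.25 (adjusted p = 0.381 and 0.591), and that of miR-486-5p was 1.01 (adjusted p = 0.00223). Summed over the 3 lymphocyte microRNAs the ranges were 101 to 374, 122 to 599, 139 to 428 and 137 to 873 CPM, and 2 of the 2 tested were called over age. Of the 4 myeloid microRNAs, with sums of 1410 to 4280 CPM over all libraries, 0 of the 2 tested were called over age, although miR-223-3p was called lower at 13.5 against 12 months (edgeR adjusted p = 0.0281) and miR-142a-5p higher at 15 against 13.5 months (edgeR adjusted p = 0.0209). The part of the cell makeup of the blood in the results below was not tested, and fewer cells of a type and less RNA per cell cannot be told apart in whole blood. A single 16.5-month library, the one with the fewest counts, stood apart from the others (connectivity Z of -3.267). The column names of 12 and 16.5 months follow one form and those of 13.5 and 15 months another, so that whatever series this marks and age cannot be told apart.

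Counts were compared with the quasi-likelihood test of edgeR after TMM scaling, for microRNAs with more than 100 reads in at least 20 of 40 libraries, with p-values adjusted by the Benjamini-Hochberg method over all 105 and called at 0.05. Levels are log2 CPM, reads scaled to a common total on the TMM scale. Of the 6 members, 5 passed this minimum and miR-106b-5p did not, since it exceeded 100 reads in 13 of 40 libraries. Over the 4 ages, 61.0% of all tested microRNAs were called, and among the 5 tested members the call was made for miR-93-5p (adjusted p = 6.24e-06). Other scalings and tools called 1 to 5 of the 5, the 5 with library totals, where 83 of all 105 were called.

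**Figure D2:**
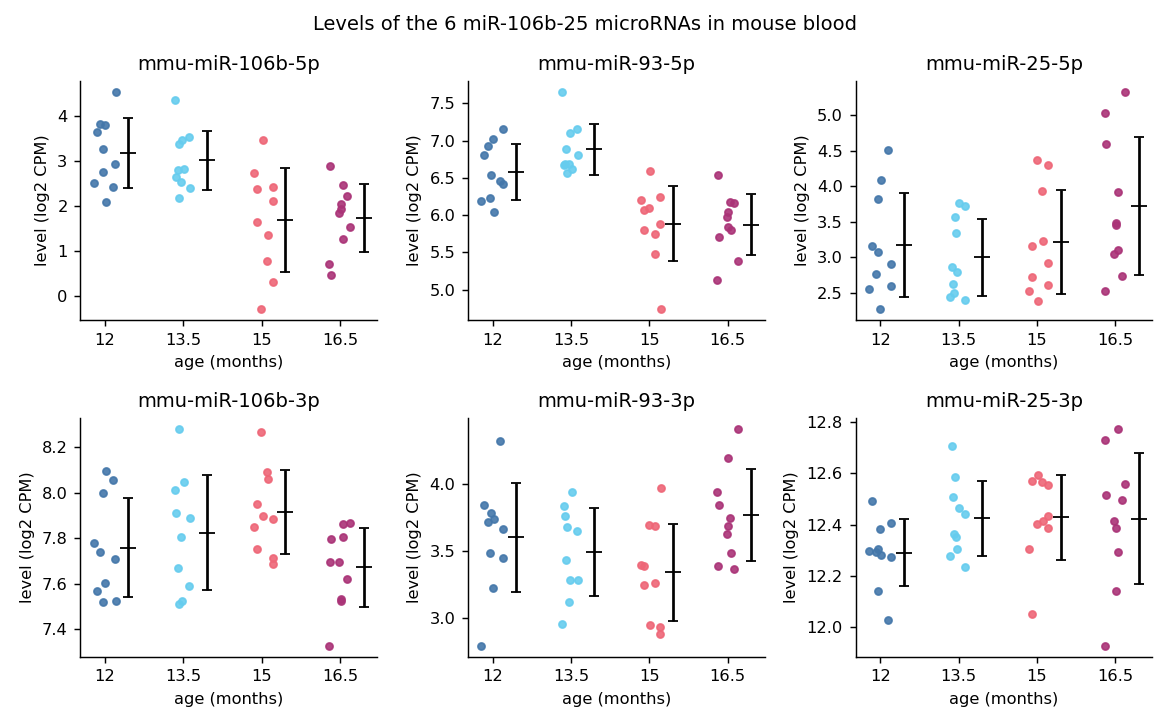
Level in log2 CPM (y axis, a separate range for each panel) of the 6 members at each age in months (x axis); points are libraries, 10 per age, and the black bar and whiskers are the mean and SD. miR-93-5p sits between 6.04 and 7.65 at 12 and 13.5 months and between 4.74 and 6.59 at the later ages, and miR-25-3p stays between 11.93 and 12.77 at all 4.

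miR-93-5p was lower at 15 and 16.5 months than at both earlier ages. Its lowest, median and highest read counts were 911, 1545.5 and 2672 at 12 months and 731, 1500.5 and 2744 at 13.5 months. They were 75, 295 and 650 at 15 months, and 48, 659 and 1670 at 16.5 months. On the log2 CPM scale its level averaged 6.58 ± 0.38 (SD, n = 10) at 12 months, 6.88 ± 0.34 at 13.5 months, 5.89 ± 0.51 at 15 months and 5.87 ± 0.41 at 16.5 months. The 10 libraries of 16.5 months, with a highest level of 6.54, lay below all 10 of 13.5 months, whose lowest was 6.57, and the other pairs of ages overlapped.

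At 16.5 against 13.5 months the level of miR-93-5p fell by 0.99 on the log2 scale (SE 0.18, edgeR adjusted p = 1.80e-05), to 0.504 of the earlier level, where 40% of all tested microRNAs were called. At 15 against 13.5 months it fell by 0.96 (SE 0.18, adjusted p = 3.12e-05), beside 47.6% called in all. In 10 of 10 libraries of 15 months it lay below the mean of 13.5 months. Against 12 months it fell by 0.67 at 15 months (SE 0.18, adjusted p = 0.00595) and by 0.70 at 16.5 months (SE 0.18, adjusted p = 0.00405), and 23.8% of all tested microRNAs were called in each of these comparisons. These 4 calls held in each of 40 fits that left out 1 library. Neither the 2 earlier nor the 2 later ages differed from each other beyond their spread, with a log2 difference of 0.29 at 13.5 against 12 months (SE 0.18, adjusted p = 0.221, 29.5% called in all) and of -0.03 at 16.5 against 15 months (SE 0.18, adjusted p = 0.947, 28.6% called in all). With 1 or 2 factors of unwanted variation in the fit, the kind of correction the study used, the difference at 13.5 against 12 months was 0.43 and 0.48 and was called (edgeR adjusted p = 0.000987 and 0.000288).

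miR-25-3p, the strand with the miR-92 seed, held nearly the same level at every age. Its reads ran from 43481 to 137318 with a median of 81022 at 12 months and from 31995 to 155930 with a median of 78334 at 13.5 months. At 15 months they ran from 8475 to 41791 with a median of 24605, and at 16.5 months from 5393 to 121981 with a median of 52416. On the log2 CPM scale the averages were 12.29 ± 0.13 (SD, n = 10), 12.42 ± 0.15, 12.43 ± 0.16 and 12.42 ± 0.26. The 3 later ages differed from 12 months by 0.14, 0.14 and 0.15 on the log2 scale (SE 0.087 each, adjusted p of 0.203 to 0.264). Among themselves they differed by 0.00 to 0.01 (SE 0.087, adjusted p of 0.913 to 0.973). In a fit to only the 2 ages, the difference of 15 against 12 months was 0.25 and was called (adjusted p = 0.0268). Scaled by library totals instead of TMM, its level at 15 months was called lower, as it fell by 0.65 against 12 months (adjusted p = 0.00595) and fell by 0.74 against 13.5 months (adjusted p = 0.00174), where the median of all tested microRNAs moved by -0.844 and -0.812.

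miR-106b-3p, the more abundant strand of its hairpin, was also not called at any pair of ages. Its level averaged 7.76 ± 0.22 (SD, n = 10), 7.82 ± 0.25, 7.92 ± 0.18 and 7.67 ± 0.17 log2 CPM in order of age, and its reads ran from 222 to 6465 over all libraries. The largest difference was that of 16.5 against 15 months, -0.24 on the log2 scale (SE 0.10, adjusted p = 0.0587), with 10 of 10 libraries of 16.5 months below the mean of 15 months. This difference passed in 17 of 40 fits without 1 library and under several other scalings and tools, DESeq2 among them (adjusted p = 0.00582).

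The rarer strands of miR-93 and miR-25 gave 1 call each near the threshold. miR-93-3p had medians of 201, 149, 42.5 and 155 reads in order of age, with a range of 20 to 359 over all libraries. It exceeded 100 reads in 21 of 40 libraries, 0 of them at 15 months, so that it passed the minimum through the other ages. Its level rose by 0.43 on the log2 scale from 15 to 16.5 months (SE 0.17, adjusted p = 0.0482), from a mean of 3.34 to 3.77 log2 CPM, and the groups overlapped. This call held in 24 of 40 fits without 1 library and ended under most alternatives (DESeq2 adjusted p = 0.0704). miR-25-5p had medians of 128.5, 134, 35 and 107 reads with a range of 23 to 352, and exceeded 100 reads in 22 of 40 libraries, 0 of them at 15 months.

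Its level averaged 3.18 ± 0.73 (SD, n = 10), 3.0 ± 0.54, 3.22 ± 0.74 and 3.72 ± 0.97 log2 CPM, the widest spread of the 5 tested members at 16.5 months. From 13.5 to 16.5 months it rose by 0.85 on the log2 scale (SE 0.34, adjusted p = 0.0423), with 8 of 10 libraries above the earlier mean, where miR-93-5p fell. The call ended when any 1 of 3 of the 16.5-month libraries was left out, with the lowest log2 difference at 0.60 and adjusted p-values up to 0.127. It also ended without the library that stood apart (0.72, adjusted p = 0.0886), with voom (0.37, adjusted p = 0.216), with library totals (0.46, adjusted p = 0.1) and under lower minimums.

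**Figure D3:**
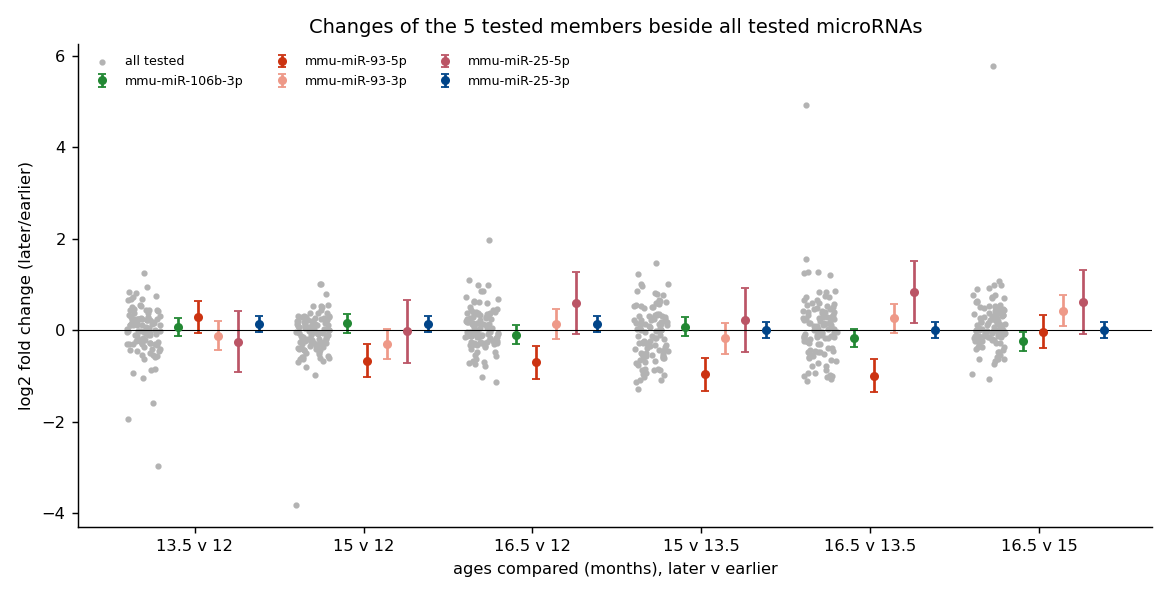
Log2 fold change of the later against the earlier age (y axis) for the 6 pairs of ages (x axis); colored points are the 5 tested members with whiskers of 2 SE, gray points all 105 tested microRNAs. miR-93-5p lies between -0.67 and -0.99 in the 4 comparisons of a later with an earlier age, while miR-25-3p stays between 0.00 and 0.15 on this TMM scale (scaled by library totals, miR-25-3p and miR-106b-3p turn negative where 15 months is the later age).

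miR-106b-5p, the strand with the same seed as miR-93-5p, was too rare for the main test. It had 54, 154.5 and 290 reads (lowest, median, highest) at 12 months and 60, 83.5 and 210 at 13.5 months. At 15 months the values were 1, 17 and 73, and at 16.5 months 2, 40.5 and 129. In 3 libraries it had 3 reads or fewer, so that single values at the later ages carry a large counting error.

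With the minimum lowered to more than 1 read in 20 of 40 libraries, 345 microRNAs were tested and 39.1% were called over age, miR-106b-5p among them (edgeR adjusted p = 0.000579). In that fit its level fell by 1.26 on the log2 scale at 15 against 12 months (SE 0.34, adjusted p = 0.00992, 11.3% called in all) and by 1.41 at 16.5 against 12 months (SE 0.33, adjusted p = 0.00458, 13.9% called in all). Against 13.5 months it fell by 1.02 at 15 months (SE 0.34, adjusted p = 0.0211, 27.0% called in all) and by 1.17 at 16.5 months (SE 0.33, adjusted p = 0.00805, 21.4% called in all). It was not called at 13.5 against 12 months (-0.24, SE 0.32, 15.7% called in all) or at 16.5 against 15 months (-0.15, SE 0.35, 12.5% called in all). All 4 pairs that were called for miR-93-5p were thus also called for miR-106b-5p, and the 4 comparisons share their libraries.

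Because scaling moves all members of a library together, members were also compared as ratios of reads within a library, which need no scaling. Each of 8 ratios was tested over the 4 ages and at 6 pairs by two-sided permutation tests with 100000 resamples, adjusted over 8 and 48 tests. Values are log2 ratios with 0.5 added to each count.

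Relative to miR-25-3p of the same library, miR-93-5p was lower at the later ages. The log2 ratio of miR-93-5p to miR-25-3p averaged -5.71 ± 0.38 (SD, n = 10) at 12 months, -5.54 ± 0.45 at 13.5 months, -6.54 ± 0.55 at 15 months and -6.55 ± 0.38 at 16.5 months. For each read of miR-93-5p there were thus 50.0, 50.3, 85 and 90.1 reads of miR-25-3p in the median library of each age. The ages differed (adjusted permutation p = 8e-05, from the smallest p that the resamples can give). At 16.5 against 13.5 months the groups did not overlap, with a difference of -1.01 ± 0.19 (SE, adjusted p = 0.00096), and the differences were -0.998 at 15 against 13.5 months (adjusted p = 0.0012), -0.83 at 15 against 12 months (adjusted p = 0.00216) and -0.84 at 16.5 against 12 months (adjusted p = 0.00144). Within the pairs of earlier and of later ages the differences were 0.17 ± 0.19 and -0.01 ± 0.21 (SE).

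The ratio of miR-106b-5p to miR-25-3p moved the same way (adjusted permutation p over age = 0.00032), from averages of -9.15 ± 0.75 (SD, n = 10) and -9.45 ± 0.78 at 12 and 13.5 months to -10.74 ± 1.12 and -10.72 ± 0.75 at 15 and 16.5 months. Its 4 differences between an earlier and a later age ranged from -1.28 to -1.59 and passed, the weakest being that of 15 against 13.5 months (adjusted p = 0.023). The log2 ratio of miR-106b-5p to miR-93-5p also fell by 0.74 ± 0.21 (SE) at 16.5 against 12 months (adjusted permutation p = 0.00522). With 5 added to each count in place of 0.5 this difference was -0.43 (adjusted p = 0.118).

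**Figure D4:**
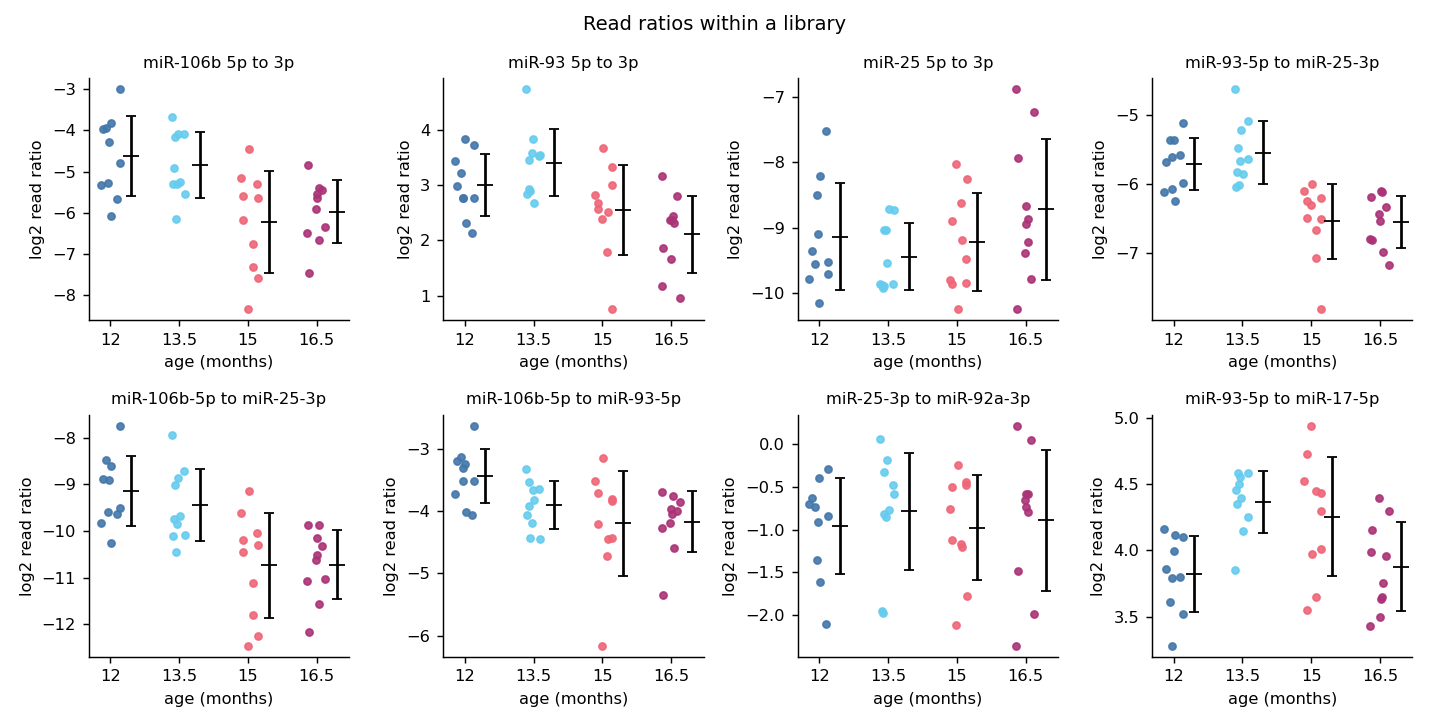
Log2 ratio of the reads of 2 microRNAs within a library (y axis, a separate range for each panel) by age in months (x axis); points are libraries, 10 per age, and the black bar and whiskers are the mean and SD. The ratio of miR-93-5p to miR-25-3p averages -5.71 and -5.54 at the earlier and -6.54 and -6.55 at the later ages, and that of miR-25-3p to miR-92a-3p stays between -0.98 and -0.78.

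The balance of the strands of a hairpin differed with age at miR-106b and miR-93. The 5p strand of miR-106b made up a median of 4.15%, 2.87%, 1.63% and 1.77% of the reads of both strands in order of age, and the ages differed (adjusted permutation p = 0.00152). Its log2 ratio of 5p to 3p fell by 1.61 ± 0.50 (SE) at 15 and fell by 1.36 ± 0.39 at 16.5 against 12 months (adjusted p = 0.016 and 0.0108). At miR-93 the 5p strand made up 88.0%, 91.9%, 86.2% and 83.6% (adjusted permutation p over age = 0.00154). Its log2 ratio at 16.5 months fell by 1.29 ± 0.29 (SE) against 13.5 months (adjusted p = 0.00182) and fell by 0.88 ± 0.28 against 12 months (adjusted p = 0.0197). At 15 against 13.5 months the difference was -0.85 ± 0.32 (SE, adjusted p = 0.029), a call that held in 38 of 40 tests without 1 library. The difference at 15 against 12 months was -0.44 ± 0.31 (SE) and was not called (adjusted p = 0.334).

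At miR-25 the 5p strand made up a median of 0.143%, 0.119%, 0.154% and 0.207%, and its ratio was not called over age (adjusted permutation p = 0.291). The largest difference of that ratio was 0.73 ± 0.38 (SE) at 16.5 against 13.5 months (adjusted p = 0.146).

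Among the paralogous clusters, 4 of the 12 strands of miR-17-92 passed the main minimum, and 2 of these 4 were called over age, beside 61.0% in all. miR-17-3p (adjusted p = 0.000491) had medians of 163.5, 186.5, 39.5 and 102 reads, and its log2 difference at 15 against 13.5 months was -0.68. miR-19b-3p (adjusted p = 9.66e-07) was lowest at 13.5 months, where it fell by 1.94 on the log2 scale against 12 months. miR-92a-3p, with the seed of miR-25-3p, was not called (adjusted p = 0.917), nor was miR-18a-3p (adjusted p = 0.42). Of the 10 strands of the miR-106a-363 cluster 0 passed, and 4 had no read in any library.

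The relatives with the seed of miR-93-5p were rare. miR-17-5p had medians of 114, 65, 15 and 45 reads, miR-20a-5p of 15, 9, 3 and 7, and miR-106a-5p and miR-20b-5p at most 5 reads. The log2 ratio of miR-93-5p to miR-17-5p averaged 3.82 ± 0.29 (SD, n = 10), 4.37 ± 0.23, 4.26 ± 0.45 and 3.88 ± 0.34, and the ages differed (adjusted permutation p = 0.00266). It was 0.55 ± 0.12 (SE) higher at 13.5 than at 12 months (adjusted p = 0.00267) and fell by 0.49 ± 0.13 from 13.5 to 16.5 months (adjusted p = 0.00895), while 16.5 and 12 months differed by 0.05 ± 0.14 (adjusted p = 0.844). At 15 months this ratio was 0.43 ± 0.17 (SE) higher than at 12 months (adjusted permutation p = 0.0459), a call that held in 27 of 40 tests without 1 library. The log2 ratio of miR-25-3p to miR-92a-3p was not called over age (adjusted permutation p = 0.919), and its 6 differences lay between -0.20 and 0.17 with standard errors of 0.26 to 0.34.

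Levels of the members were correlated to very different degrees over the libraries. Over 40 libraries the log2 CPM of miR-106b-5p and miR-93-5p correlated with r = 0.863, and with r = 0.801 after the mean of each age was removed. miR-93-5p and its partner strand miR-93-3p gave r = -0.325, miR-93-5p and miR-25-5p r = -0.649, and miR-93-5p and miR-25-3p r = -0.0621. All points of such a correlation share the scaling and depth of their library.

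The microRNAs most like miR-93-5p were miR-15a-5p (r = 0.952), miR-16-5p (r = 0.872) and miR-103-3p (r = 0.857), over 40 libraries. Within ages the values were 0.925, 0.865 and 0.716. These share no seed with miR-93-5p. Their log2 differences in the same order were -1.0, -0.38 and -0.774 at 16.5 against 13.5 months, and -0.424, -0.498 and -0.271 at 15 against 12 months.
mmu-miR-15a-5p: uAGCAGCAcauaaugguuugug
mmu-miR-16-5p: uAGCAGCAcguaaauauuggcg
mmu-miR-103-3p: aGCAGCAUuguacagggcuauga

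Those most like miR-25-5p were miR-328-3p (r = 0.930), miR-423-5p (r = 0.917) and miR-486b-3p (r = 0.860, equal to the row of miR-486a-3p), and those most like miR-93-3p were miR-130b-5p (r = 0.724), miR-676-3p (r = 0.688) and miR-328-3p (r = 0.686). For miR-106b-3p the nearest was miR-3074-5p (r = 0.603), followed by miR-1964-3p (r = 0.535) and miR-744-5p (r = 0.525). miR-25-3p had no close match, the nearest being miR-27b-3p (r = 0.480), miR-10a-5p (r = 0.348) and miR-378a-3p (r = 0.326).

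The levels of several members moved with the share of reads outside miR-486. Over 40 libraries the correlation with the log2 of that share was r = 0.797 for miR-106b-5p, 0.664 for miR-93-5p, -0.603 for miR-25-5p and -0.0736 for miR-25-3p. The mature strands also differ in base content, with a GC share of 42.9% for miR-106b-5p, 50.0% for miR-25-3p, 52.2% for miR-93-5p, 59.1% for miR-93-3p and miR-25-5p and 63.6% for miR-106b-3p. Over the 90 of 105 tested microRNAs with a RefSeq sequence, GC share and log2 fold change correlated with r = 0.328 at 13.5, 0.375 at 15 and -0.00897 at 16.5 against 12 months, with r = -0.000766 at 15 and -0.258 at 16.5 against 13.5 months, and with r = -0.273 at 16.5 against 15 months. The part of the share outside miR-486 and of base content in the differences of the members was not tested.

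**Figure D5:**
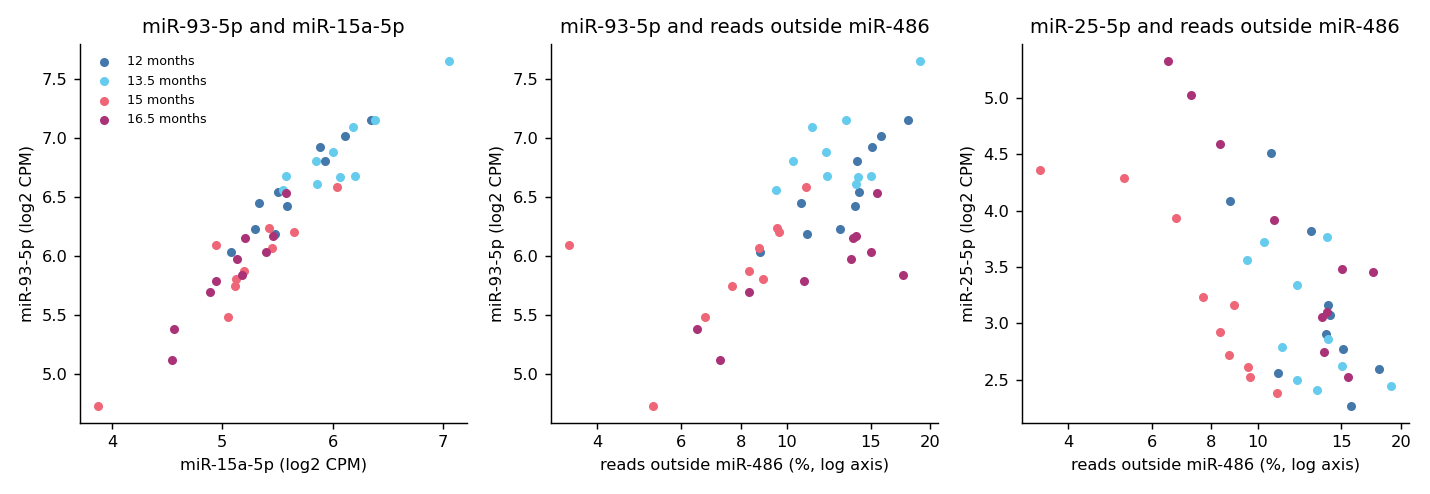
Left, level of miR-93-5p against miR-15a-5p (both log2 CPM); middle and right, levels of miR-93-5p and miR-25-5p (log2 CPM) against the percent of reads outside miR-486 (log axis); each point is 1 of 40 libraries, colored by age. The pairs correlate with r = 0.952, 0.664 and -0.603, and the libraries of 16.5 months span 5.12 to 6.54 log2 CPM in miR-93-5p, those of 13.5 months 6.57 to 7.65.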

How the data were processed

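Small RNA of total mouse blood was sequenced in 40 libraries of 4 ages. Per the study's methods, TruSeq small RNA libraries were read on a HiSeq instrument, checked with FastQC (version 0.11.5 in the submitters' processing notes), trimmed with cutadapt and counted with miRDeep2 against mm10 and miRBase without mismatches. The authors deposited raw counts per mature microRNA, summed over loci; a second, normalized table was not used. Each column gave its age but no replicate number of the labels.

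The counts were fitted in R 4.3.3 with edgeR 4.0.16 (TMM, glmQLFit, glmQLFTest, prior count of 2 for levels). The SE of a log2 fold change is its size divided by the root of its F statistic. The fit and the ratio test were tested on simulated data. Levels of adjusted significance and the minimum of 100 reads in 50% of libraries followed the study, whose tool, DESeq2 (here 1.42.0) with factors of unwanted variation of unstated number, was an alternative. Other alternatives were library totals, median-ratio factors, voom of limma 3.58.1, lower minimums, omission of miR-486, 1 or 2 factors of unwanted variation, omission of single or unlike libraries, and fits to the ages compared. Permutation tests used numpy in Python 3.11.15, and exact enumeration where an age had fewer than 10 libraries. No 2 libraries of the same age were duplicates (smallest chi-square per degree of freedom 19.4 over 180 pairs). The counts are reads without molecular identifiers, and the SEs and p-values of the tests include the spread between libraries. Sequences came from RefSeq, and gene models from GENCODE M21.

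The text names the 6 members, the paralogous clusters and, for each tested member, the 3 microRNAs of highest Pearson r. Members and lists were chosen with earlier results of these data known.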

Additional observations from a re-analysis of the deposited data

Results flagged for a closer look

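Of 56 sets of 10 libraries (levels and ratios of the members at each age), 2 held a library farther from the next than the 95% critical value of Dixon's test allows, where chance gives about 1 in 20. At 15 months the lowest level of miR-25-3p was 12.05 log2 CPM, against 12.31 for the next library. At 15 months the lowest log2 ratio of miR-106b-5p to miR-93-5p was -6.163, against -4.715 for the next, in a library with 1 read of miR-106b-5p.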

How the results depend on the processing

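The 4 falls of miR-93-5p kept their direction under every alternative and remained called except with library totals at 16.5 against 12 months (-0.85, adjusted p = 0.172). Below, numbers in brackets after a setting are the calls among all 105 tested microRNAs, or among the number stated. Over age 1 member was called in the main fit (64), 5 with library totals (83), 3 with DESeq2 (77) and 3 with 1 factor of unwanted variation (89). There were 2 with 2 factors (90), median-ratio factors (73), voom (80) and no miR-486 (68 of 101). The low minimum (135 of 345) and no minimum (113 of 1016), where miR-106b-5p also enters, gave 2 as well. Without single libraries 1 to 3 were called. At 13.5 against 12 months 0 members were called in the main fit (31). With 1 or 2 factors (54 and 52) there were 2, miR-93-5p higher and miR-25-5p lower (-0.47 and -0.44). At 15 against 12 months 1 member was called in the main fit (25) and 5 with library totals (84). There were 2 with voom (33), 1 factor (44), only those ages (28) or lower minimums (39 of 345, 31 of 1016). At 16.5 against 12 months 1 was called in the main fit (25), 0 with library totals (5) and 2 with lower minimums (48 of 345, 29 of 1016). At 15 against 13.5 months 1 was called in the main fit (50) and 5 with library totals (73). There were 2 with 2 factors (65) or lower minimums (93 of 345, 69 of 1016). At 16.5 against 13.5 months 2 were called in the main fit (42). There was 1 with library totals (28), voom (58), the unlike library left out (39 of 104) or only those ages (43), and 1 to 3 without single libraries. At 16.5 against 15 months 1 was called in the main fit (30). There were 3 with library totals (66) and with 1 factor (47). There were 0 with lower minimums (43 of 345, 21 of 1016) or without the unlike library (29 of 104). With the 15-month libraries of letter B left out, an alternative chosen after seeing the data, the count was also 0. There 21 of all tested microRNAs were called. Without single libraries 0 to 2 members were called.

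Library totals moved the median of all 105 microRNAs by -0.844 (log2) at 15 against 12, -0.812 at 15 against 13.5 and 0.645 at 16.5 against 15 months, and turned miR-106b-3p to -0.62 and -0.70, miR-25-3p to -0.65 and -0.74 (at 15 against 12 and 13.5 months) and miR-25-5p to -0.66 (15 against 13.5 months).

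The ratio of miR-106b 5p to 3p differed at 4 pairs of ages, and at 2 with 5 added to each count, with medians or without letter B. The ratio of miR-106b-5p to miR-93-5p differed at 3, and at 0 with 5 added, at 1 with medians or without letter B, and at 1 to 3 without single libraries. The ratio of miR-25 5p to 3p differed at 0, and at 0 to 1 without single libraries.

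The same 10 numbers recur in the column names of all ages, and the labels do not say whether a number marks an animal. With the mean of each age removed, same-numbered libraries correlated over 0.1 in 24 of 60 pairs and were the best match in 4. These correlations ranged from -0.867 to 0.86, too wide to tell what the numbers mark. The numbers were also fitted as a replicate block, an alternative chosen after seeing the data. With this block 1 member was called at 16.5 against 13.5 months (40 of all 105), where miR-25-5p lost its call (0.76, adjusted p = 0.0596). At 16.5 against 15 months 0 were called (28 of all 105), where miR-93-3p lost its call (0.44, adjusted p = 0.0577). Depth limits miR-106b-5p, with 1 to 73 reads at 15 months.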

Other observations

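The 3 libraries of 15 months whose column names hold the letter B and the 7 with the letter C were compared as values, since nothing in the labels says what the letters mark. Their median levels were 6.07 and 5.88 log2 CPM for miR-93-5p, 12.41 and 12.43 for miR-25-3p, 8.06 and 7.85 for miR-106b-3p, and 1.36 and 2.10 for miR-106b-5p. After the mean of each age was removed, the correlation with the log2 share of reads outside miR-486 was 0.833 for miR-106b-5p, 0.652 for miR-93-5p, -0.392 for miR-106b-3p, -0.412 for miR-93-3p, -0.819 for miR-25-5p and 0.0346 for miR-25-3p over 40 libraries. Of the microRNAs with the seed of miR-25-3p other than miR-92a-3p, none passed the minimum. Among them miR-92b-3p had medians of 32, 43, 14.5 and 30 reads in order of age and miR-363-3p of 22.5, 22, 6.5 and 17. The platelet and endothelial strands of miR-126a together stayed at or below 6.01 CPM in every library.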
